A study of Homo sapiens with 14 samples.

Results

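The promoter regions without p50 skew are stretches of chromatin in L1236 cells that overlap a transcription start site (TSS) and in which p50 did not clearly outweigh p52. They were selected on the p50 and p52 reads of each region. A region belonged to them when the log2 ratio of its share of all p50 reads to its share of all p52 reads, with 1 read added to each, was below 0.8, that is, below 1.74-fold. By this rule 934 of the 14865 regions of the study qualified, or 38.2% of the 2447 regions over a TSS. The other 1513 regions over a TSS, with a ratio of 0.8 or more, are called p50-skewed promoter regions here and serve as the comparison.

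L1236, the cell line of this series, is an established line of Hodgkin lymphoma cells, and no treatment is labelled. Cells were fixed with 1% formaldehyde, and the DNA pulled down with the NF-κB subunits p50, p52, RelA and RelB was sequenced (ChIP-seq). There were 2 replicates per subunit and 6 libraries of input DNA, 14 samples in all. Both replicates of p50, RelA and RelB used the same antibody, whereas the p52 replicates used different ones. Reads and calls are available for merged replicates, so that most values below have no replicate error.

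NF-κB is a family of transcription factors that bind DNA as dimers. RelA and RelB carry an activation domain. p50 and p52, which are cut from the precursors p105 and p100, have none, and they also form dimers without RelA or RelB. The canonical pathway releases mainly p50-RelA dimers from IκB proteins. The non-canonical pathway processes p100 and thereby yields p52-RelB dimers. In Hodgkin lymphoma cells NF-κB is active without a stimulus.

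The promoters of several well-known NF-κB target genes belonged to these regions, and their sequences show what κB-like elements look like there. The 300 bases from 250 before to 50 after the RefSeq start of each gene (GRCh38.p14) were searched on both strands for GGNNTTTCC, GGNNTTCCC and GGGNNNCCC, which can overlap each other. Capitals mark the matches, and each stretch is printed on the strand of its gene and lies upstream of the start. The first set shows genes of the NF-κB system itself, chosen because their products act in the pathway: NFKBIA (chr14:35404802-35404999, minus strand), NFKB1 (chr4:102501198-102501339, plus strand), REL (chr2:60881508-60881556, plus strand), TNFAIP3 (chr6:137867172-137867232, plus strand) and BIRC3 (chr11:102317265-102317377, plus strand).
NFKBIA: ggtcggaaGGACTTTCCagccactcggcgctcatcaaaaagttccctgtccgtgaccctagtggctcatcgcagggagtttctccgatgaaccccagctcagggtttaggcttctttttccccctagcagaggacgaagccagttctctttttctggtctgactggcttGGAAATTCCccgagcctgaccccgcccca
NFKB1: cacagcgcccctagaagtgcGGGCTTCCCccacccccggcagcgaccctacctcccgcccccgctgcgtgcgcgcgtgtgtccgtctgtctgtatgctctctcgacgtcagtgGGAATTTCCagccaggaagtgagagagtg
REL: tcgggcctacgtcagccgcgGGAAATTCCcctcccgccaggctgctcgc
TNFAIP3: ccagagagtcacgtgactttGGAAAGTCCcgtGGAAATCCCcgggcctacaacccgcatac
BIRC3: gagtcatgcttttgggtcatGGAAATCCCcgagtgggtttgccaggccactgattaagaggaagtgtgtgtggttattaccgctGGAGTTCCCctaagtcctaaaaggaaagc

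The second set shows effector genes of immune and survival functions, chosen because each holds a match upstream of its start: TAP1 (chr6:32853747-32853795, minus strand), B2M (chr15:44711372-44711420, plus strand), ICAM1 (chr19:10270914-10270962, plus strand), TNFRSF9 (chr1:7940884-7940932, minus strand), EBI3 (chr19:4229436-4229485, plus strand), IRF1 (chr5:132490794-132490842, minus strand) and CFLAR (chr2:201118600-201118648, plus strand).
TAP1: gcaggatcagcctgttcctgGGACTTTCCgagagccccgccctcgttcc
B2M: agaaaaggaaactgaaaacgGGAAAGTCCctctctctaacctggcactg
ICAM1: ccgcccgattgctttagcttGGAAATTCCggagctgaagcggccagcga
TNFRSF9: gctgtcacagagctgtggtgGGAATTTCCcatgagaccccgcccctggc
EBI3: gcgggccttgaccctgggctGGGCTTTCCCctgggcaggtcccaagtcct
IRF1: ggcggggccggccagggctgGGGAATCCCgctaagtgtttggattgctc
CFLAR: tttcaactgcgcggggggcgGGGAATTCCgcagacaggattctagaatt

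Each match names letters in the reference and not a site shown to be bound. The regions are placed on hg18 and the windows on GRCh38.p14, so no distance between a peak and a match was taken. NFKBIA held GGACTTTCC and GGAAATTCC, starting 242 and 81 bases before its start. TNFAIP3 held GGAAAGTCC and GGAAATCCC, starting 67 and 55 bases before its start. None of the 3 motifs was found in the windows of NFKB2, RELA, BIRC2, LTA and CCL3.

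Over the named genes, GGNNTTTCC was found in the windows of 30 of 149 promoters without p50 skew (20.1%, Wilson 95% interval 14.5 to 27.3%) and of 11 of 149 p50-skewed promoters (7.38%, 4.17 to 12.7%). Over all 27305 RefSeq windows the share was 6.26%. With genes named through the alphabetical gene table only, the shares were 18.1% of 72 (10.9 to 28.5%) and 7.34% of 109 (3.77 to 13.8%). GGNNTTCCC was found in 12.8% and 14.1% of the windows without and with p50 skew, against 6.51% of all windows, and GGGNNNCCC in 23.5% and 26.8%, against 16.2%. These 2 motifs thus had overlapping intervals between the groups. Any of the 3 was found in 64 of 149 windows without skew (43%, 35.3 to 51.0%), in 36.2% of the skewed ones (29.0 to 44.2%) and in 24.5% of all windows. Windows without skew held a median of 23 CG dinucleotides and those with skew 31, against 14 over all windows. The GC box GGGCGG was found in 65.8%, 75.2% and 44.6% of them, CCAAT in 33.6%, 32.2% and 35.7% and TATAAA in 8.72%, 3.36% and 12.0%. As a check of the members as a whole these shares are void, because only 16.0% of the 934 regions and 9.85% of the skewed ones had a named gene with a window. They describe the named genes alone, and many of those were named through gene sets the study had chosen.

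Occupancy by p50 and p52 describes the rule and is no finding. The ratio had a median of 0.36 (quartiles 0.05 and 0.61) and was above 0 in 731 of the 934 regions, so most leaned slightly to p50, while 14 had a ratio below -0.8. In the p50-skewed promoter regions the median ratio was 1.30. p50 was called in 92.2% of the regions without skew, beside 73.8% of all regions, and p52 in 91.1%, beside 73.3%. A call is a peak of the subunit in the merged replicates that passed the thresholds for the irreproducible discovery rate (IDR) between replicates and for the false discovery rate (FDR). Both were called together in 791 regions (84.7%). Median reads were 182.5 for p50 and 159 for p52, against 129 and 56 in p50-skewed promoter regions.

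The members just inside the threshold were an unnamed promoter at chr2:71074857-71076251 with 129 p50 and 81 p52 reads, chr6:70632796-70634734 with 175 and 110, and chr9:3515617-3517502 with 302 and 190. Just outside were chr12:55790022-55792727 with 712 and 447 reads, chr7:104949057-104950250 with 77 and 48, and the promoter of IGF1R, a growth factor receptor gene, with 241 and 151. At the other end, the lowest ratio, -2.10, came from 15 p50 and 74 p52 reads at chr17:25684638-25685227. The next were -1.76 at chr2:233345445-233345913, -1.56 at chr3:120799285-120800826, -1.39 at chr7:129935400-129936449 and -1.33 at chr4:77163519-77164795. Of these 5 regions only chr7:129935400-129936449 was called for RelB, with 70 reads and 19.5-fold enrichment over input.

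RelB, which the rule did not use, was called in 433 of the 934 promoter regions without p50 skew (46.4%, Wilson 95% interval 43.2 to 49.6%). It was called in 201 of the 1513 p50-skewed promoter regions (13.3%, 11.7 to 15.1%) and in 26.8% of all regions. RelA was called in 81 regions without skew (8.67%, 7.03 to 10.7%), in 35 skewed ones (2.31%, 1.67 to 3.20%) and in 3.31% of all regions. All 4 subunits were called in 74 regions without skew (7.92%), in 13 skewed ones (0.859%) and in 2.35% of all, but p50 and p52 calls share their reads with the rule. The intervals cover counting over regions only, and regions are not replicates, so no p-value is given. Libraries of RelB and RelA held fewer reads in the table (470788 and 315151) than those of p50 and p52 (1654137 and 1810792), so counting error was larger for RelA and RelB. With the IDR required to be below 0.001, RelB was called in 26.8% of the regions without skew and 4.82% of the skewed ones, and RelA in 3.85% and 0.595%.

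Where RelA was called without p50 skew, RelB nearly always was too: in 77 of 81 regions (95.1%, 88.0 to 98.1%), against 21 of 35 skewed ones (60%, 43.6 to 74.4%) and 88.8% of all RelA regions. Of the skewed regions 7, and of all regions 26, were called for RelA alone and entered the study only through that call. This lowers their RelB shares by selection, so the shares are a description only. The converse, RelA wherever RelB was called, did not hold, since 356 regions without skew had RelB and no RelA. The most frequent combinations were p50 with p52 alone (382 regions), p50, p52 and RelB (332), and all 4 (74). Only p50 was called in 60 regions and only p52 in 55. Neither was called in 13, of which 11 had RelB alone and 2 had RelA and RelB. Among regions called for both p50 and p52, RelB was called in 51.3% without skew (47.8 to 54.8%) and 26.6% with skew (22.7 to 30.9%).

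The share of RelB calls fell with the ratio from 0 upward across promoter regions, on either side of the threshold. It was 57.1% (44.9 to 68.6%) of 63 regions with a ratio below -0.4 and 59.3% (51.0 to 67.1%) of 140 between -0.4 and 0, and these intervals overlapped. It was 48.6% of 296 regions between 0 and 0.4 and 39.1% of 435 between 0.4 and 0.8. Above the threshold it was 20.2% of 608, 11.1% of 539 and 4.92% of 366. RelA calls went from 15.0% of the regions between -0.4 and 0 to 1.64% of those at 1.6 and above.

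**Figure D1:**
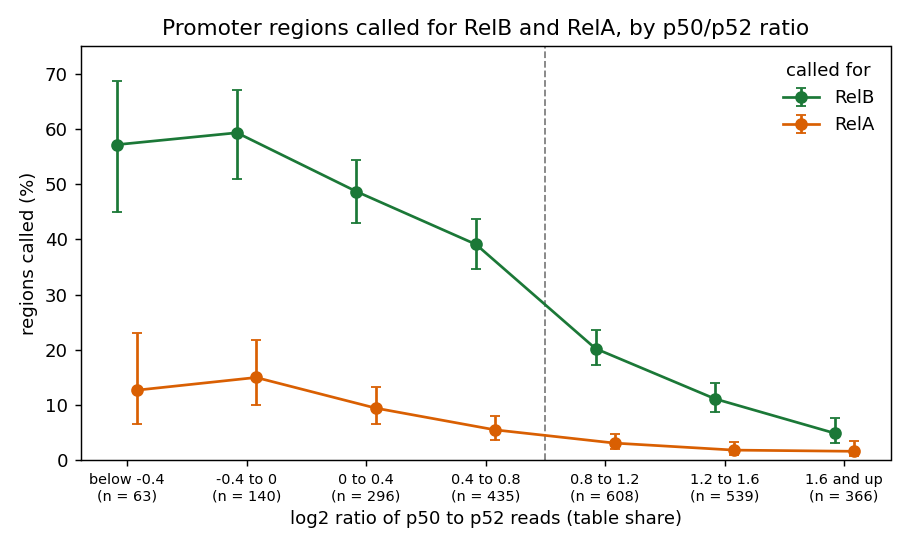
Percentage of promoter regions called for RelB (green) and RelA (orange) in bins of the log2 ratio of p50 to p52 reads, with the number of regions under each bin. Bars are Wilson 95% intervals and the dashed line marks the threshold of 0.8. RelB calls lie between 39.1% and 59.3% left of the line and between 4.92% and 20.2% right of it.

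Read densities gave the same order for RelB but not for RelA. Density is the number of reads plus 1 per 1000000 table reads of the subunit and per kb of region. The median RelB density was 60.5 (95% order-statistic interval 58.0 to 63.6) without skew, 41.4 (40.1 to 42.7) with skew and 46.8 over all regions, and it was thus 1.46 times as high without as with skew. The median RelA density was 62.9 (61.0 to 65.1) and 61.1 (59.8 to 62.8) in these groups, with overlapping intervals, against 53.3 over all regions. The RelB difference was not seen in all quartiles of the p52 reads of promoter regions, which the rule used. From the lowest quartile, the median RelB density was 60.2, 40.8, 49.7 and 76.8 without skew. With skew it was 35.3, 41.9, 49.1 and 55.6. Densities of RelB and RelA are not compared with each other, because their order depends on the scaling. The member medians were 28.0 RelB and 19.2 RelA reads per kb without scaling, and 99.7 and 341 per kb and 1000000 reads in called regions.

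**Figure D2:**
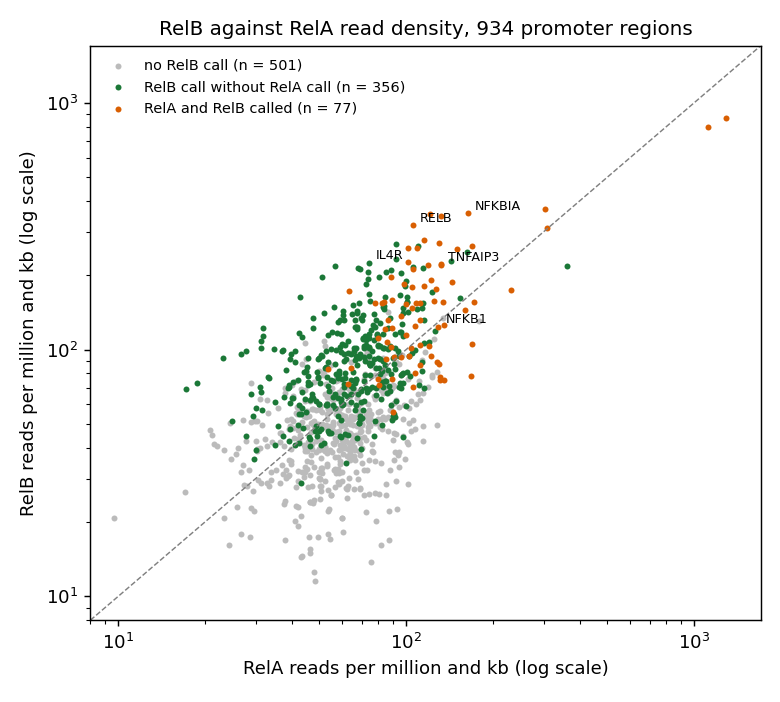
RelB against RelA read density (reads plus 1 per 1000000 table reads and kb, both axes on a log scale) in the 934 promoter regions, coloured by calls. The dashed line marks equal density on this scale and would shift with another scaling of the subunits. Of the points, 77 were called for RelA and RelB and 356 for RelB without RelA. IL4R and RELB lie further towards RelB than NFKB1.

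Called peaks had higher enrichment. Median fold enrichment over input was 10.1 (9.21 to 10.7) for RelB in the regions without skew and 6.94 (6.46 to 7.47) in skewed ones, and 7.27 (6.79 to 7.80) and 5.68 (5.14 to 6.23) for RelA. The signal value, a peak score of each replicate, was given in 2 columns. For RelB its medians were 169 and 400 without skew and 130 and 181 with skew. The intervals were apart in the column with 400 and 181, and in the other they just met, with 150 to 192 against 122 to 151. For RelA the medians were 99.5 and 58.3 without skew and 58.8 and 51.8 with skew. They were apart in the former column and overlapped in the latter, with 51.8 to 67.9 against 42.7 to 66.9.

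Region width and read depth moved with these shares. The regions without skew had a median width of 1588.5 bp (1523 to 1646), against 1256 bp in skewed ones and 863 bp over all regions. More than 2 kb were spanned by 28.7%, against 11.7% and 5.98%. Wide regions hold more reads and overlap a TSS more easily. Within quartiles of the width of all promoter regions, RelB was called in 25.7%, 31.6%, 47.5% and 62.2% of the regions without skew, from the narrowest to the widest, and in 7.31%, 15.9%, 11.7% and 21.9% of the skewed ones. Within quartiles of p50 reads the shares were 21.2%, 29.5%, 40.7% and 69.7% without skew and 6.76%, 9.52%, 17.2% and 25.9% with skew. In no quartile of width did the intervals of the 2 groups overlap. The rule used the p50 and p52 reads, so within a quartile of p50 reads the groups differ by their p52 reads, and these shares are a description that does not separate the ratio from the read number.

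Within quartiles of p52 reads the difference was not seen throughout. In the quartile of 47 to 78 p52 reads, RelB was called in 17.2% of 134 regions without skew (11.7 to 24.4%) and 11.4% of 474 with skew (8.84 to 14.6%). In that of 79 to 149 reads the shares were 25.8% of 264 (20.9 to 31.4%) and 23.2% of 345 (19.0 to 27.9%), and the intervals overlapped in both. In the highest quartile they were 65% of 506 (60.8 to 69.0%) and 33.7% of 104 (25.3 to 43.2%). In the lowest, 13 of 30 regions without skew (43.3%, 27.4 to 60.8%) and 5.42% of 590 with skew had a RelB call. In the skewed regions the RelB share was higher in each next quartile of p52 reads. In the regions without skew it was so over the upper 3 quartiles, while the share of the 30 regions in the lowest lay above the next, with intervals apart. A region entered the study only with a call for some subunit. Those with few p50 and p52 reads could thus enter through a RelB or RelA call, which raises the RelB share there by selection. The shares of the lowest quartile are therefore a description only. For RelA, the shares within quartiles of p52 reads, from the lowest, were 3.33%, 1.49%, 3.79% and 13.4% without skew. With skew they were 1.53%, 2.53%, 2.03% and 6.73%, and the intervals overlapped in each quartile. Within quartiles of width the RelA shares were 2.70%, 6.84%, 9.02% and 11.9% against 2.58%, 1.43%, 2.18% and 3.46%. These intervals were apart in all but the narrowest. The part of the p52 reads in the differences between the groups was not tested.

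**Figure D3:**
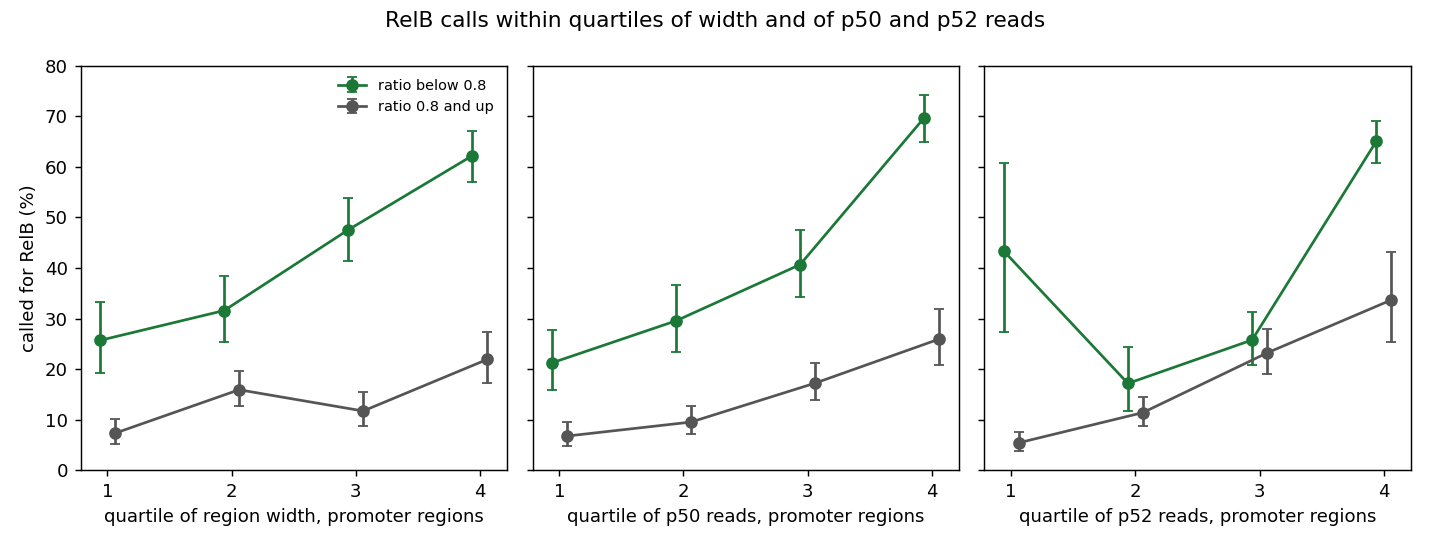
Percentage of promoter regions called for RelB with a p50 to p52 ratio below 0.8 (green) and of 0.8 or more (grey), within quartiles of width (left), p50 reads (middle) and p52 reads (right) of all 2447 promoter regions. The p50 and p52 reads also define the groups. Bars are Wilson 95% intervals. They are apart in every quartile of width and overlap in the middle quartiles of p52 reads, at 17.2% against 11.4% and 25.8% against 23.2%.

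Peak summits of the subunits lay close together in most regions, but not in all. In regions without skew called for both, the RelB summit was a median of 24 bp (20 to 28) from the p50 summit and 23 bp (20 to 29) from the p52 summit, and the RelA summit was 25 bp (18 to 35) from the RelB summit. Distances above 250 bp between RelB and p50 were found in 81 of 416 regions, and 57 of these were wider than 2 kb. Summits within 250 bp made up 80.5% (76.5 to 84.0%) without skew, 91.4% with skew and 93.4% of the regions off a TSS. Another RelB region within 50 kb was found for 36.3% (33.3 to 39.4%) of the regions without skew, for 24.7% (22.6 to 27.0%) of the skewed ones and for 36.7% of all regions.

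Genes of the NF-κB system, of immune and survival functions and of related lists were looked up. The lists were chosen with earlier results of these data in view, and an identifier was at hand for only 78 of their 225 genes. Of these 78 genes, 40 had a promoter region without p50 skew, 7 had a skewed one, 26 had regions off the TSS only and 5 had none. Over all regions over a TSS, 38.2% were without skew. That share has its counterpart in the 40 and 7 genes with a promoter region, and not in all 78. RelB was called in 32 of the 40 regions (80%) and RelA in 17 (42.5%), beside 46.4% and 8.67% of all members. Among all named members, many of which the study had picked for its gene sets, the RelB share was 56.5%. The RelA share was 13.4% of the 119 named members whose window lacked GGNNTTTCC and 26.7% of the 30 whose window held it. List genes without an identifier can lie among the unnamed members, so these counts and shares hold for the genes looked up only. The median RelB level of the 40 list regions was 47.9 reads per kb, against 28.0 over all members.

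All 5 genes of the NF-κB subunits had such a region, and each was called for all 4 subunits. At NFKB2, the gene of p100 and p52 (chr10:104143410-104146372), 947 p50, 1152 p52, 112 RelA and 495 RelB reads were counted. This corresponds to 167 RelB reads per kb, the highest level of the 5, with an exact Poisson 95% interval of 452 to 541 for the RelB reads. The RelB summit at NFKB2 lay 1204 bp from the p50 summit, and the RelA summit 10 bp from it. At RELB (chr19:50196148-50197531) the reads were 232, 319, 45 and 207, or 150 RelB reads per kb. At REL, the gene of c-Rel (chr2:60961113-60964105), they were 822, 911, 83 and 223. NFKB1, the gene of p105 and p50 (chr4:103641169-103642814), had 303, 238, 66 and 95 reads, and RELA (chr11:65186640-65188132) had 189, 150, 47 and 65. NFKB2 and RELB thus had RelB levels more than 3 times that of RELA, which had 43.5 RelB reads per kb.

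At NFKBIA, which encodes the inhibitor IκBα (chr14:34941193-34944892), 1152 p50, 1626 p52, 190 RelA and 620 RelB reads were counted, and RelB was enriched 56.0-fold. This was the highest RelB level of all named members, at 168 reads per kb, with NFKB2 next at 167. The NFKBIA region spanned 3700 bp, and its RelB and RelA summits lay 950 and 984 bp from its p50 summit. Its pooled reads therefore do not show all subunits at 1 site. BCL3, whose product is a nuclear partner of p50 and p52 (chr19:49941696-49944677), had 820, 785, 64 and 298 reads and no RelA call. Of the 6 genes of signalling and feedback that could be looked up, TNFAIP3, TNIP1, TRAF1, BIRC2 and BIRC3 had such a region. For 23 more genes of this list no identifier was at hand, and they can lie among the unnamed members. The 5 regions all had a RelB call, and those of TNFAIP3, TNIP1 and BIRC3 a RelA call. BIRC3, the gene of the ubiquitin ligase cIAP2 (chr11:101692401-101693877), leaned most to p52, with a ratio of -0.84, and had 78 RelA and 182 RelB reads. TNFAIP3, the gene of the deubiquitinase A20 (chr6:138228897-138231250), had 97 RelA and 244 RelB reads, and BIRC2 had 39 and 93. TRAF1, an adaptor of TNF receptors, had 389 p50 and 329 p52 reads but only 32 RelA and 36 RelB reads.

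**Figure D4:**
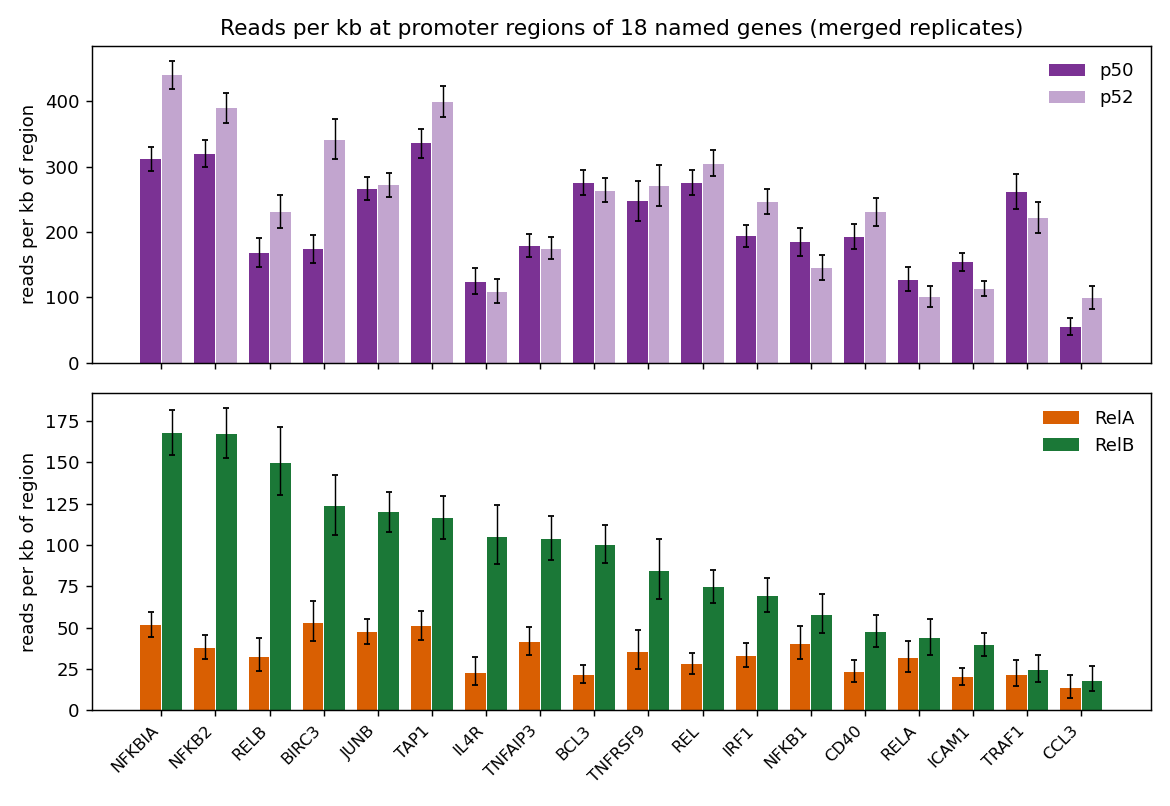
Reads per kb of region for p50 and p52 (top) and RelA and RelB (bottom) at 18 named promoters, ordered by RelB, from merged replicates. Bars are exact Poisson 95% intervals of the read number. RelB falls from 168 reads per kb at NFKBIA to 18.0 at CCL3, whereas RelA stays between 13.3 and 52.8.

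Genes of survival and of the TNF family were mixed. The regions at GADD45B (263 RelB reads) and CFLAR (142), which encodes the caspase inhibitor c-FLIP, had a RelB call. The region at BCL2L1, the gene of the survival factor Bcl-xL, had a RelA call but no RelB call, with 91 RelA and 136 RelB reads. BCL2L11, the gene of the death factor Bim, had neither and 10.9 RelB reads per kb. The promoter region of BCL2 was p50-skewed, with 106 p50 and 58 p52 reads. Of the TNF family, TNFRSF9, LTA, CD40 and CD70 had a RelB call, with 84.1, 76.6, 47.2 and 47.0 RelB reads per kb, and TNFSF9 had none, with 19.3. TNFRSF9, which encodes the receptor 4-1BB, was the only of these called for RelA.

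Of the chemokine and cytokine genes that could be looked up, CCL5, CXCR5 and CCL3, and IL4R, EBI3, IL2RG, CSF1 and IL21R had such regions. For 14 of 21 genes on the chemokine list and 15 of 25 on the cytokine list no identifier was at hand. Those genes can lie among the unnamed members. CCL5 had a RelB call with 67.5 RelB reads per kb, while CXCR5 (23.6) and CCL3 (18.0) had none. All 5 of the cytokine and receptor regions had a RelB call and none had a RelA call. IL4R, the interleukin-4 receptor gene (chr16:27232349-27233673), stood out with 139 RelB reads on 164 p50, 144 p52 and 30 RelA reads, or 105 RelB reads per kb. The promoter regions of IL2RA, CSF2 and IFNGR2 were p50-skewed, with 81, 678 and 262 p50 reads and 24, 269 and 143 p52 reads. Of the latter only IFNGR2 had a RelB call.

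Of the transcription factor genes, JUNB, an AP-1 subunit (chr19:12762930-12766215, named by an amplicon of the study's primer list), had 875 p50, 891 p52, 155 RelA and 393 RelB reads and was called for all 4. BATF had 79 RelB reads and no RelB call. IRF5 and IRF1, interferon regulatory factor genes, were called for all 4, with 340 and 176 RelB reads. PRDM1, the gene of Blimp-1, with 8 RelB reads and STAT5A with 56 had neither a RelA nor a RelB call. TCF3, the gene of E2A, had 163 RelB reads and a RelB call. TAP1, the peptide transporter gene of antigen presentation (chr6:32927893-32930612), had 912 p50, 1084 p52, 138 RelA and 316 RelB reads. RelB was called there and RelA was not. B2M, the light chain of MHC class I, had 121 RelB reads and a RelB call. ICAM1, an adhesion molecule gene, was called for all 4 with 62 RelA and 122 RelB reads. The promoter regions of SLAMF1, a lymphocyte receptor gene, and POU2F1, the gene of Oct-1, were p50-skewed. Of the cell cycle genes 1 could be looked up, CDKN1A, and its promoter region was p50-skewed. Of the 20 housekeeping genes listed, 3 could be looked up, and they differed. The promoter region of ACTB was p50-skewed with 472 p50 and 116 p52 reads and no RelA or RelB call. B2M, which was on this list too, had the region without skew and the RelB call given above, and ACTG1 had no region.

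The strongest RelB and RelA levels among the 934 regions were at a promoter at chr8:72918261-72919462, with 489 reads of each, or 407 per kb, and 46.3-fold and 47.4-fold enrichment. The next, chr18:97286-99942, had 999 RelB and 933 RelA reads but only 7.33-fold and 4.14-fold enrichment, and the background under it, its pileup over its fold enrichment, exceeded the subunit's median 5 times over. Without this region, the only such member, RelB was called in 46.3% and RelA in 8.57% of the members. Neither p50 nor p52 was called at chr8:82916858-82917518 and chr17:42621328-42621833, which were called for RelA and RelB alone. They had 174 and 144 RelB reads per kb and 93.8 and 94.9 RelA reads per kb. Their enrichment was modest, at 9.37-fold and 6.08-fold for RelB and 6.75-fold and 3.74-fold for RelA. Their p50 reads, 69 and 64, were close to their RelA reads, 62 and 48. FAM129A (162 RelB reads per kb), chr16:49332585-49334723 (130) and chr6:33387904-33391039 (127) completed the 10 highest for RelB and were called for all 4. For RelA the 10 highest also held chrY:11917372-11919507, called for RelB alone at 4.22-fold, chr2:99163367-99164482, chr12:56134411-56135547, C7orf68 and chr1:109090384-109091749, with 113, 71.7, 55.4, 53.5 and 52.7 RelA reads per kb. Of these, chr12:56134411-56135547 was called for p50 and p52 only.

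RelB and RelA could be compared with replicates only by the signal values, at regions called for both. The values were put on a log2 scale, each column was centred on its median over the 437 regions called for both, and limma was fitted to 2 columns per subunit. None of the 77 regions without p50 skew passed an adjusted p of 0.05, and none of all 437 did (0%). At an unadjusted p under 0.05 were 10 of the 77, with RelB relatively higher at 3 and lower at 7, and 68 of all 437. The median difference of RelB from RelA was 0.19 (quartiles -0.91 and 0.74) in the 77 regions, with a median standard error of 0.75, so only large differences could have been called.

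**Figure D5:**
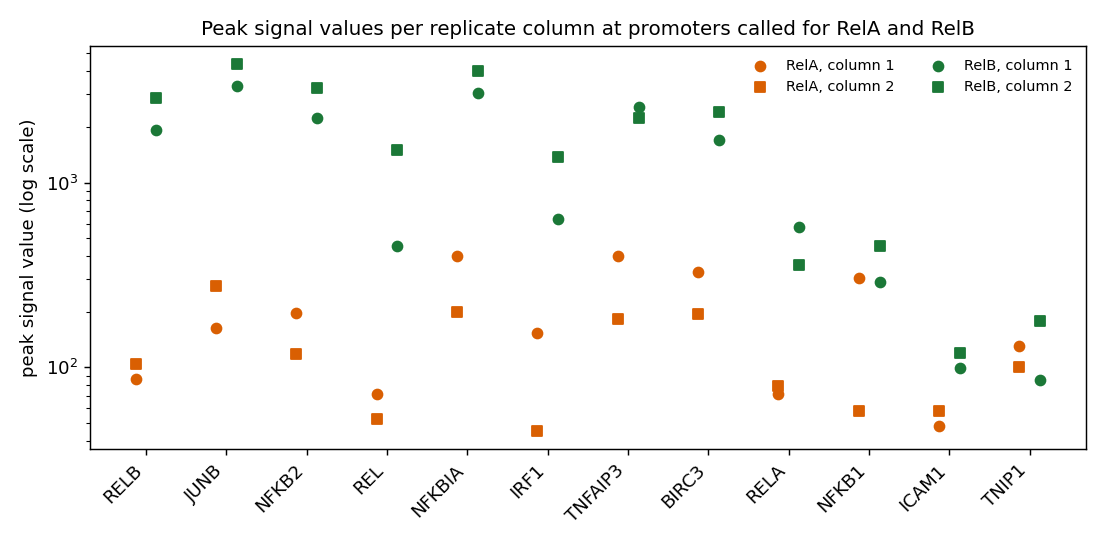
Signal values (log scale, no centring) of the RelA and RelB replicate columns at 12 named promoters called for both, ordered by the centred difference of RelB from RelA. The RelB columns of RELB are 1917 and 2872 against 86.1 and 104 for RelA, whereas those of TNIP1, at 85.3 and 178, overlap with RelA at 130 and 99.9.

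RELB had RelA signal values of 86.1 and 104 and RelB values of 1917 and 2872, and the centred log2 difference was 1.85 with a standard error of 0.72 (limma adjusted p = 0.304). At NFKB2 the RelA values were 197 and 118 and the RelB values 2228 and 3241, with a centred difference of 1.36 ± 0.69 (SE, limma adjusted p = 0.333). At the other end, TNIP1 had RelA values of 130 and 99.9 and RelB values of 85.3 and 178, which overlapped, and the centred difference was -2.67 ± 0.71 (SE, limma adjusted p = 0.302). ICAM1 had 48.3 and 57.8 for RelA and 99.0 and 120 for RelB, with a centred difference of -1.74 ± 0.71 (SE, limma adjusted p = 0.304). RELA and BIRC3 lay near the middle, at -0.19 and 0.22. Without centring, 51 of the 77 passed, all with RelB higher, so the direction rests on the scale of the columns.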

How the data were processed

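NF-κB ChIP-seq was analysed from the authors' table of union regions, given on hg18. Per the labels and methods, the authors used CASAVA, Bowtie (unique reads), SAMtools (duplicates), random reduction to a common library size, MACS and the IDR on replicates. The deposited read counts are whole numbers per region from merged replicates and are not normalized. Whether they were taken after that reduction is not given in the sources used here. The deposited fold enrichment is the MACS ratio of ChIP to input, and the deposited pileup a coverage signal at the summit. The authors deposited the IDR (a fraction from 0 to 1) and the FDR (a q-value), and the signal value is the authors' score per replicate, of unknown scale. Region positions and distances to the closest Ensembl 54 gene and TSS are other values of the authors.

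Regions are not replicates, so shares carry Wilson and medians order-statistic 95% intervals, and reads exact Poisson intervals, all of counting error only. RelB and RelA signal values were fitted with limma 3.58.1 (R 4.3.3, Benjamini-Hochberg, threshold 0.05). The limma fit, the Wilson and median intervals and the motif search were tested on simulated data. The members, lists and tests were chosen with earlier results of these data known, and quartiles of width and reads were added after values were seen.

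Named were the 10 members with most RelB and with most RelA reads per kb, the 5 lowest ratios, 3 on either side of the threshold, all subunit and IκB list genes, up to 4 per other list, and members holding a primer amplicon (BCL3, CD70, JUNB, NFKBIA, REL and STAT5A). Further genes of a list, and p50-skewed promoters, were named for completeness after values were seen. Names came from the readable part of the study's gene tables and primer list, for 191 members (20.4%) and 207 skewed regions (13.7%). Promoter sequences are RefSeq's (GRCh38.p14), whose starts may differ from Ensembl 54. Python 3.11.15 with pandas 2.3.3, numpy 2.4.6, scipy 1.17.1 and matplotlib 3.10.9 was used.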

Additional observations from a re-analysis of the deposited data

How the results depend on the processing

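The number of promoter regions without p50 skew stayed within 1.5 times of 934 under every alternative run. The RelB share of 46.4% was 51.8% with a ratio below 0.6, 40.8% below 1.0, 42.5% with a TSS within 1 kb, 38.4% without regions wider than 2 kb and 26.8% with an IDR below 0.001. The RelA share of 8.67% was 7.01%, 6.46% and 3.85% under the last 3, and that of all 4 subunits 6.23%, 5.56% and 3.21%. The threshold of 0.01 for the IDR changed nothing, since all deposited IDR values lay below it. The RelB density was 66.7 and 56.6 with ratios below 0.6 and 1.0, 99.8 without division by width and 99.7 per 1000000 reads in called regions, and the RelA density 59.9 with a TSS within 1 kb, 98.4 and 341 on those scales. The width was 1404 bp with a TSS within 1 kb. The share of windows with a κB-like motif was 20.1% with GGNNTTTCC and 34.2% with GGNNNTTCC alone. The RelB share stayed above that of p50-skewed promoter regions in the 6 alternatives in which both were computed. Alternatives with IDR below 0.001, without high background, GGNNNTTCC and names of the alphabetical table were chosen after seeing the data.

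The replicated comparison of RelB with RelA gave 0 calls as reported, 51 without centring, and 0 to 0 when each signal column was left out, where the lone column is assumed to vary like the other subunit's. No paired analysis was possible because the signal columns carry no replicate numbers of the labels. The merged reads, the few RelA reads within regions and the small number of RelA regions limit the precision. In the paper's quality control the RelA libraries had more mapped reads than those of RelB. Their normalized strand cross-correlation, a quality metric, was lower.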

Other observations

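Several promoter regions without p50 skew lay at innate sensing and interferon-related genes outside the lists, and they were picked after their values were seen. IFIH1, which encodes the RNA sensor MDA5 (chr2:162882819-162884235), had 334 p50, 440 p52, 35 RelA and 130 RelB reads and a RelB call at 19.1-fold enrichment. DDX58, the gene of the RNA sensor RIG-I, had 81, 53, 25 and 35 reads and a RelB call at 5.37-fold. APOBEC3B, a cytidine deaminase gene, had 17 RelB and 2 RelA reads and a RelB call, and AIM2, a DNA sensor gene, had a RelB call at 9.09-fold. TMEM173, the gene of STING, BST2, APOL6 and IFI30 were members without a RelB call.

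Other named members with high RelB levels were ANKRD33B, with 395 RelB and 83 RelA reads and the highest RelB enrichment of these, 62.2-fold, PTGER4, a prostaglandin E2 receptor gene, with 155 and 26 reads, and ZFP36L2, a gene of mRNA decay, with 197 and 75 reads. All 3 were called for RelB and not for RelA. Among named members with a window, RelB was called in 21 of 30 (70%) whose promoter held GGNNTTTCC and in 62 of 119 (52.1%) whose promoter did not. No interval was computed for these shares, and 30 promoters are few, so they do not establish a difference. The median log2 ratio of p50 to p52 was 0.01 with and 0.29 without the motif. These values are a description of named genes only.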
